A study of Mus musculus with 6 samples.

Results

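Transcripts of 10 genes were followed in mouse peritoneum, the thin lining of the abdomen: the hexokinases Hk1, Hk2 and Hk3, the phosphofructokinase Pfkl, the regulatory enzyme Pfkfb3, the enzymes Aldoa, Pgk1, Pkm and Ldha, and the lactate exporter Slc16a3. They were taken by symbol from the pathway, in a choice made with earlier results of these data known, and all 10 were present among the 14943 gene symbols of the table and among the 13980 that passed the filter on low counts. All libraries came from wild-type C57BL/6J males aged 8 weeks, with tissue collected in week 3. The 3 control libraries are from animals that received only saline into the abdomen. The 3 EPS libraries are from a model of encapsulating peritoneal sclerosis, in which scar tissue wraps the bowel; these animals were given 4.25% dialysis solution (100 mL/kg) together with 0.3 mL of SHS each day, and LPS (lipopolysaccharide, 4 mg/kg) once weekly, all by the intraperitoneal route. The effects of the separate agents cannot be told apart, since every EPS animal received all of them. The labels do not say that each library is a separate animal, so p-values measure the spread between these libraries.

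Glycolysis splits glucose into pyruvate in the cytosol and yields a small amount of ATP without oxygen. Hexokinases trap glucose as glucose 6-phosphate, phosphofructokinase commits it to the pathway, aldolase cleaves the sugar, and phosphoglycerate kinase and pyruvate kinase make the ATP. Lactate dehydrogenase then regenerates NAD+ by turning pyruvate into lactate, and monocarboxylate transporters carry the lactate out of the cell. Fat cells use glycolytic intermediates to build triglycerides, and activated white blood cells rely heavily on glycolysis.

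Most of the enzyme genes fell in EPS, while the myeloid hexokinase gene Hk3 and the lactate exporter gene Slc16a3 rose steeply from a low level. Of the 10 genes, 6 were lower (Hk2, Pfkl, Pfkfb3, Aldoa, Pkm and Ldha), 3 were higher (Hk1, Hk3 and Slc16a3) and Pgk1 was not called by edgeR's quasi-likelihood test at a Benjamini-Hochberg adjusted p under 0.05. Change was widespread in these libraries: 59.6% of all genes tested were called, 30.4% lower and 29.2% higher. The median log2 fold change was -1.25 over the 10 genes and -0.015 over all genes tested. CPM of the 2 groups did not overlap for 9 of the 10 genes, as for 68.5% of all genes tested. Scaling to library totals in place of TMM factors shifted the median gene upward by 0.42 (log2), put 72.2% of all calls on the higher side against 49.1%, and left 5 of the 10 genes lower and 3 higher, since Pkm was no longer called.

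**Figure D1:**
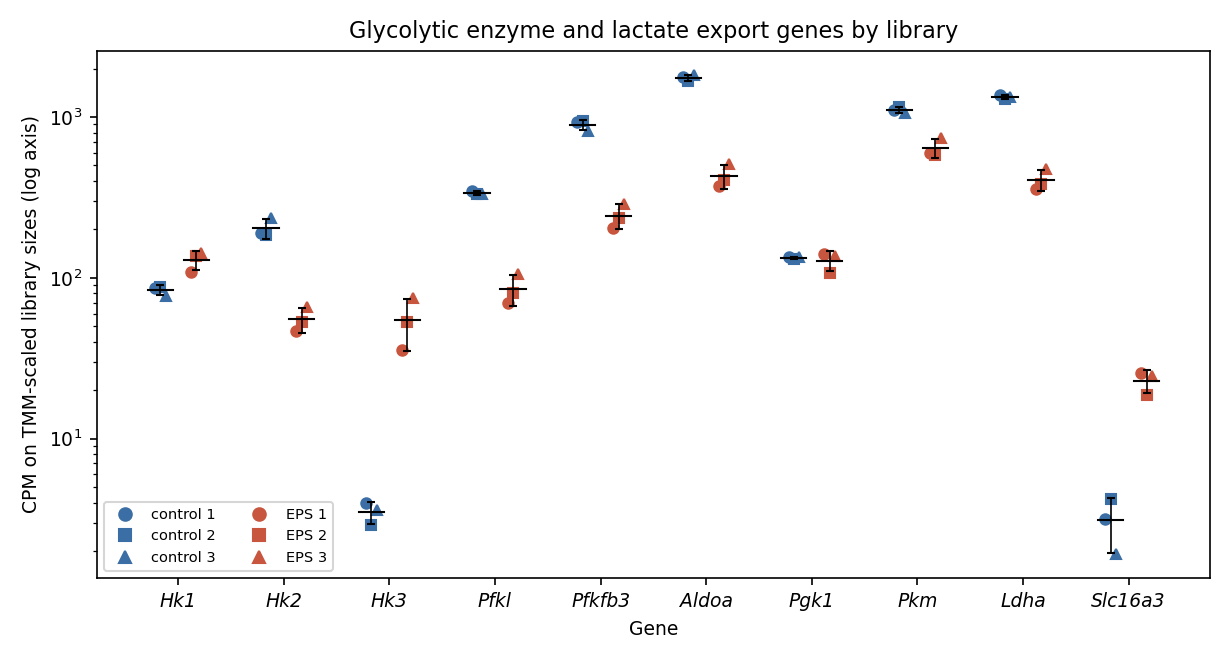
Each point is the CPM of one gene in one library on TMM-scaled library sizes (log axis), blue for control and red for EPS, with bars for the group mean and SD of 3 libraries. Hk3 and Slc16a3 sit below 5 CPM in every control and above 15 CPM in every EPS library, Pgk1 overlaps, and Aldoa, Ldha, Pfkfb3, Pfkl and Hk2 are lower in every EPS library.

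Promoter sequence is shown for 5 of the genes because they cover each outcome: Ldha and Hk2 fell, Slc16a3 and Hk3 rose, and Pgk1 was not called. The motif searched on both strands was ACGTG, a form of the core bound by hypoxia-inducible factors. It also lies within CACGTG, a site of MYC-type factors. The form GCGTG was not searched. Each sequence is the 250 bases before a RefSeq start on GRCm38.p6, read along the gene's strand, in lower case with motif matches in capitals, which read CACGT where the match is on the other strand. For Ldha the first of its RefSeq starts is shown (chr7:46845554-46845803, plus strand), for Hk2 chr6:82774455-82774704 (minus strand), for Slc16a3 chr11:120948817-120949066 (plus strand), for Hk3 chr13:55021386-55021635 (minus strand) and for Pgk1 chrX:106186850-106187099 (plus strand).
Ldha: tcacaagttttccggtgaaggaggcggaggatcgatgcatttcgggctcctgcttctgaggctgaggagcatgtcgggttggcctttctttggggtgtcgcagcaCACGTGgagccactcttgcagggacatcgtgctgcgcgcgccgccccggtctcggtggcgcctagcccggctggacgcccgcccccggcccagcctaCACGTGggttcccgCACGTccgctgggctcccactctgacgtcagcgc
Hk2: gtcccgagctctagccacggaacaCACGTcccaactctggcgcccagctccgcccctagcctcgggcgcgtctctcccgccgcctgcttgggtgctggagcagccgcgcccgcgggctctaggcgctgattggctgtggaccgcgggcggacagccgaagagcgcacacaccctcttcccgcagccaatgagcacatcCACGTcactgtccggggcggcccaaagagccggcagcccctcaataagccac
Slc16a3: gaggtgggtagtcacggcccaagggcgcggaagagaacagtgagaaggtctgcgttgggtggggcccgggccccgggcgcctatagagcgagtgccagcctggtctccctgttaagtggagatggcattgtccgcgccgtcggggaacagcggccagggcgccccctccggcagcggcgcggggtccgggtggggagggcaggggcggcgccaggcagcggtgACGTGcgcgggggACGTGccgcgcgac
Hk3: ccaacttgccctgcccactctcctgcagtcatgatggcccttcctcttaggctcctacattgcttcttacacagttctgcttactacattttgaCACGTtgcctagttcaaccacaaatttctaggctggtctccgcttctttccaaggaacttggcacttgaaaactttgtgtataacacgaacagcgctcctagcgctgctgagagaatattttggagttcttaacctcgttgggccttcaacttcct
Pgk1: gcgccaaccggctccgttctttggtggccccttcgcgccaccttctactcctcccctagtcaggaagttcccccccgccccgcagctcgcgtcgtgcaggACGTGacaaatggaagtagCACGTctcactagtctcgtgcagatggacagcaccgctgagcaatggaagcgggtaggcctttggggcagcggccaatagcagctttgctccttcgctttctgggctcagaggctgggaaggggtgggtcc
The Ldha window shown holds 2 copies of CACGTG and 1 further CACGT, while Hk2, Slc16a3 and Pgk1 hold the motif at 2 places each and Hk3 at 1. The window of the other Ldha start, chr7:46846832-46847081, held no match. At least 1 RefSeq start carried a match in this window for 8 of the 10 genes, against 18.5% of 27025 genes with a promoter window. Hk1 and Pfkl were without ACGTG, and the form GCGTG was not counted for any gene. The motif was thus present both before genes that fell and before genes that rose.

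Library totals ran from 15419232 to 17684229 counts. The tissue label was checked against marker lists. Mesothelial markers, which define the cell layer on the peritoneal surface, were present for all 9 genes listed but at a low level. Their summed CPM was 149 to 231 in controls and 58.8 to 391 in EPS. The highest sum, in EPS 1, held 106 CPM of Krt18 and 86.3 CPM of Krt8. Adipocyte markers summed to 23883 to 24678 CPM in controls and 2214 to 3788 in EPS, and all 8 were lower. All 5 blood endothelium markers were lower as well (1860 to 1910 CPM in controls, 769 to 949 in EPS). Macrophage and monocyte markers rose for 9 of 10 genes (719 to 796 CPM against 3943 to 4641), and neutrophil markers for 10 of 10 (5.95 to 7.87 CPM against 605 to 2054), with 1 of the 10 at 0 in all controls. T cell markers rose for 6 of 6 (5.55 to 6.15 CPM against 289 to 592), B cell markers for 5 of 5 (6.15 to 10.1 against 453 to 747), cell cycle genes for 5 of 5 (6.15 to 7.28 against 116 to 156) and fibroblast markers for 3 of 6 (2232 to 2302 against 4137 to 7393). The fibroblast rise was mostly in Col1a1 (461 ± 34.6 to 2233 ± 782 CPM) and Col1a2 (507 ± 30.3 to 1911 ± 577 CPM). Pi16 rose by 0.46 ± 0.17 on the log2 scale, and Pdgfra, Dcn and Dpt were not called. Exocrine pancreas markers took 18.9% of all counts in EPS 1 and between 0.0278% and 0.418% in the other libraries, with none of 16 called. Erythroid markers were not called in any of 5 cases (50.2 to 406 CPM in controls, 15.3 to 179.5 in EPS). In bulk tissue, fewer cells of a type and less RNA per cell cannot be told apart. The part of these markers in the changes below was not tested.

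The hexokinase genes moved apart. Hk2, whose enzyme is the insulin-responsive hexokinase of fat and muscle (chromosome 6, 82725025 to 82774454), stood at 191, 184 and 237 CPM in controls 1 to 3 and at 46.5, 53.2 and 66.2 CPM in EPS 1 to 3. Every EPS library lay below every control, and Hk2 was 3.69-fold lower (log2 fold change -1.88 ± 0.16 SE; edgeR adjusted p = 3.35e-05). Hk3, the hexokinase of granulocytes and other myeloid cells (chromosome 13, 55005985 to 55021385), stood at 4.00, 2.91 and 3.57 CPM in controls and at 35.8, 53.2 and 74.5 CPM in EPS. It was 15.6-fold higher (3.96 ± 0.30; edgeR adjusted p = 2.42e-05), with EPS 3 the highest and EPS 1 the lowest of the EPS libraries. In the same libraries, EPS 1 to 3, neutrophil markers summed to 605, 845 and 2054 CPM and T cell markers to 289, 416 and 592 CPM, both in the order of Hk3. Macrophage and monocyte markers did not follow that order, at 4641, 3943 and 4088 CPM, nor did B cell markers, at 732, 453 and 747 CPM. The order was not particular to Hk3 or to these lists. Blood endothelium markers, which fell, had it (769, 937 and 949 CPM), as did erythroid markers (15.3, 131 and 179.5 CPM). Hk1, Hk2, Pfkl, Pfkfb3, Aldoa and Ldha were likewise lowest in EPS 1 and highest in EPS 3. What set the order was not tested. An exon of Hk3 overlaps Unc5a on the opposite strand, and whether the counting used strand is not given, so reads from both may be mixed; Unc5a itself was lower in EPS, at 20.8 ± 6.91 CPM (SD, n = 3) against 89.2 ± 6.89. Hk1, the widely expressed housekeeping form (chromosome 10, 62268855 to 62379908), stood at 86.8, 87.7 and 77.6 CPM in controls and at 109, 137 and 142 CPM in EPS. Its rise was small, 1.54-fold (0.62 ± 0.13; edgeR adjusted p = 0.00326), with EPS 1 nearest to the controls.

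The mix of hexokinase transcripts was then compared within each library, which does not depend on scaling between libraries. Levels were taken as CPM per kb of exon and expressed as a share of the sum over 4 genes (Hk1, Hk2, Hk3 and Hkdc1). Hk2 made up 73.9%, 73.3% and 79.8% of that sum in controls and 24.5%, 22.6% and 23.1% in EPS. Hk3 went from 2.11% ± 0.35 (SD, n = 3) to 36.5% ± 5.80, and Hk1 from 22.1% ± 3.36 to 38.5% ± 3.32. These sizes depend on gene length: without a length correction the rise of the Hk3 share was 20.9 percentage points in place of 34.4, and that of Hk1 24.6 in place of 16.4. For each of the 3 shares the groups did not overlap (exact permutation test, two-sided, p = 0.1, which is the lowest value possible with 3 libraries a group; 0.114 adjusted over 8 shares). The summed level of the 4 genes per kb lay between 42.0 and 49.8 in controls and between 31.8 and 48.0 in EPS, values that overlapped and were not tested. Hkdc1 was under 1 CPM in all libraries but EPS 1, where it reached 7.97 CPM alongside the exocrine pancreas markers.

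**Figure D2:**
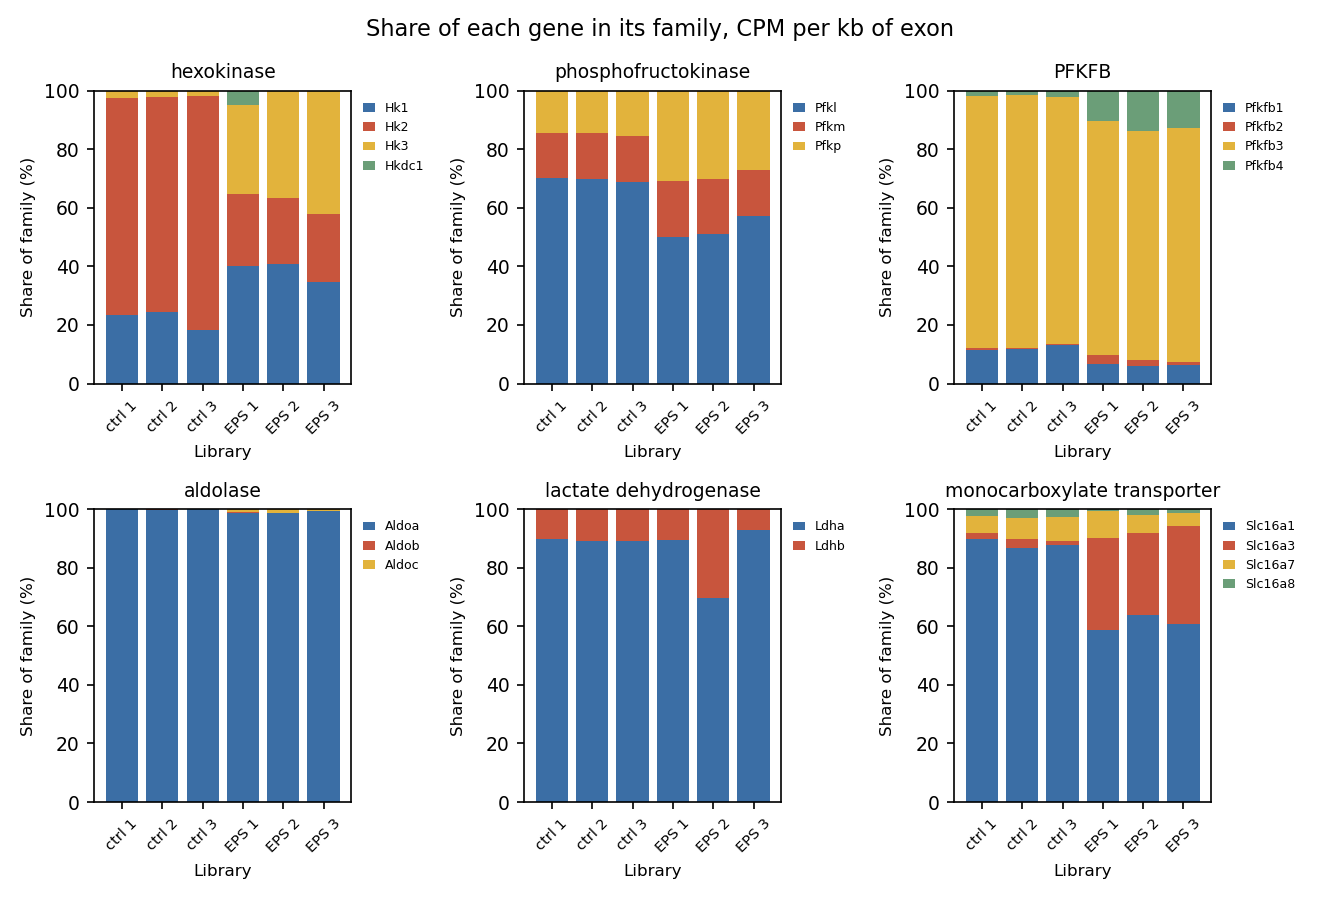
Stacked bars give each gene's share (%) of the summed CPM per kb of exon of its family in each of the 6 libraries. Hk2 dominates the hexokinases in the 3 controls at 73.3% or more and lies between 22.6% and 24.5% in EPS, Slc16a3 expands among the monocarboxylate transporters, and Ldha against Ldhb stands apart only in EPS 2.

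At the committed step, Pfkl, the liver-type phosphofructokinase (chromosome 10, 77986947 to 78010083), stood at 349, 332 and 330.1 CPM in controls and at 69.7, 80.1 and 105 CPM in EPS. The groups did not overlap, and Pfkl was 3.96-fold lower (-1.99 ± 0.16; edgeR adjusted p = 2.35e-05). The muscle-type gene Pfkm and the platelet-type gene Pfkp fell as well, by 1.39 ± 0.12 and 0.63 ± 0.10 on the log2 scale. Because both fell less than Pfkl, the share of Pfkl in the family per kb went from 69.6% ± 0.75 to 52.7% ± 3.85. The share of Pfkp went from 15.0% ± 0.61 to 29.4% ± 2.02 and that of Pfkm from 15.4% ± 0.36 to 17.9% ± 1.84. For each share the groups did not overlap (two-sided exact permutation p = 0.1 for each, and 0.114 adjusted over 8 shares for Pfkl). The summed level of the 3 genes per kb was 72.5 ± 1.53 in controls and 24.0 ± 3.41 in EPS.

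Pfkfb3 encodes a bifunctional enzyme that makes the strongest allosteric activator of phosphofructokinase (chromosome 2, 11471433 to 11554077). It stood at 926, 944 and 822 CPM in controls and at 203, 237 and 289 CPM in EPS. Each EPS library was far below the lowest control, a 3.69-fold decrease (-1.88 ± 0.16; edgeR adjusted p = 2.98e-05). Its paralog Pfkfb4 went the other way, from 12.8 ± 1.24 to 24.7 ± 6.74 CPM (0.94 ± 0.22; edgeR adjusted p = 0.00631), and Pfkfb1 fell from 67.2 ± 0.92 to 10.3 ± 1.83 CPM. Pfkfb2 was not called (edgeR adjusted p = 0.923). Pfkfb3 remained the main form, at 85.4% ± 1.05 of the family per kb in controls and 79.3% ± 0.90 in EPS, with no overlap (two-sided exact permutation p = 0.1; 0.114 adjusted over 8 shares). Pfkfb4 took 1.91% ± 0.28 and 12.3% ± 1.71.

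Aldoa, the main aldolase outside the liver (chromosome 7, 126795234 to 126800751), led the 10 genes per kb of exon in controls, while in EPS its range overlapped that of Pkm and by CPM Pkm was higher. It stood at 1786, 1672 and 1817 CPM in controls and at 370.2, 405 and 509.5 CPM in EPS. The change was 4.11-fold downward (-2.04 ± 0.16; edgeR adjusted p = 1.91e-05), the largest decrease among the 10 under TMM scaling. Aldoc, the brain-type form, rose from 2.00 ± 0.64 to 4.65 ± 1.06 CPM (1.22 ± 0.35; edgeR adjusted p = 0.0165), a call that was lost without control 3 and without EPS 2. It stayed rare: Aldoa made up 99.9% ± 0.080 of aldolase transcripts per kb in controls and 98.9% ± 0.38 in EPS (two-sided exact permutation p = 0.1; 0.114 adjusted over 8 shares).

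Pgk1, phosphoglycerate kinase, which makes the first ATP of the pathway (chromosome X, 106187100 to 106203699), did not follow its neighbours. It stood at 134, 132 and 135 CPM in controls and at 139.8, 107 and 137 CPM in EPS. The groups overlapped, with EPS 2 below and EPS 1 and EPS 3 just above all controls, and the log2 fold change was -0.06 ± 0.12 (edgeR adjusted p = 0.691). Over all alternatives it lay between -0.11 and 0.35, the last with library totals, and was called in none. Pgk1 has 4 near-identical copies in the GENCODE annotation (at least 95% identity over at least 300 bases), none of them in the count table, so its level depends on how reads matching several places were treated, a step not given in the sources used here.

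Pkm, pyruvate kinase of muscle and most other tissues, which catalyses the last step to pyruvate (chromosome 9, 59656368 to 59679375), stood at 1104, 1158 and 1055 CPM in controls and at 599, 582 and 745 CPM in EPS. The groups did not overlap, but the decrease of 1.72-fold was smaller than that of Aldoa or Ldha (-0.78 ± 0.14; edgeR adjusted p = 0.00171). With library totals it was -0.35 ± 0.25 (adjusted p = 0.242), and over all alternatives the adjusted p ran from 3.53e-06 to that value. The counts are per gene and do not separate its splice forms. The other pyruvate kinase gene, Pklr, had no count in controls and reached 2.36 CPM at most, in EPS 1.

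Ldha encodes the lactate dehydrogenase subunit that favours lactate formation (chromosome 7, 46841475 to 46855627). It stood at 1371, 1302 and 1334 CPM in controls and at 357, 386 and 475.5 CPM in EPS. All EPS libraries were far below all controls, and Ldha was 3.29-fold lower (-1.72 ± 0.15; edgeR adjusted p = 3.11e-05). Ldhb, the subunit of oxidative tissues such as heart, stood at 75.1, 76.1 and 78.8 CPM in controls and at 20.1, 79.9 and 17.1 CPM in EPS. EPS 2 alone was at the control level, so Ldhb was not called (-0.97 ± 0.64; edgeR adjusted p = 0.247), and without EPS 2 it was lower (-2.04). Smooth muscle markers, 3 of 5 of which were lower, summed to 1265, 3402 and 1154 CPM in EPS 1 to 3 against 4505 to 4975 in controls. Skeletal muscle markers, with 2 of 10 higher and 2 lower, summed to 10.9, 75.1 and 12.9 CPM in EPS against 38.3 to 55.2 in controls. The EPS 2 sum was mostly Acta1, which stood at 0.76, 60.5 and 2.18 CPM in EPS 1 to 3. Ldha made up 89.2% ± 0.39 of lactate dehydrogenase transcripts per kb in controls and 89.4%, 69.6% and 92.96% in EPS 1 to 3, and the shares overlapped (two-sided exact permutation p = 0.9, also adjusted over 8 shares). The annotation holds 3 near-identical copies of Ldha and 1 of Pkm, none in the count table.

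The transcripts of the lactate carriers moved in opposite directions. Slc16a3 encodes MCT4, a proton-coupled exporter of cells with high glycolytic flux (chromosome 11, 120948480 to 120960868). It stood at 3.14, 4.23 and 1.92 CPM in controls and at 25.6, 18.8 and 24.5 CPM in EPS. Even the lowest EPS library was over 4 times the highest control, and the gene was 7.39-fold higher (2.89 ± 0.29; edgeR adjusted p = 7.18e-05). In EPS 1 to 3, macrophage and monocyte markers summed to 4641, 3943 and 4088 CPM, and cell cycle genes to 156, 116 and 130 CPM. Other lists that were higher in EPS did not have the order of Slc16a3 over EPS 1 to 3. Neutrophil markers summed to 605, 845 and 2054 CPM and T cell markers to 289, 416 and 592 CPM. B cell markers summed to 732, 453 and 747 CPM and fibroblast markers to 5147, 7393 and 4137 CPM. The part of each list was not tested. Slc16a1, for the widely expressed carrier MCT1, fell from 111 ± 13.9 to 37.6 ± 2.15 CPM (-1.56 ± 0.12; edgeR adjusted p = 1.82e-05). Slc16a7 and Slc16a8 fell too (log2 fold changes -1.13 ± 0.29 and -1.90 ± 0.43). Slc16a8 rests on few reads, 24 to 28 a library in controls and 4 to 13 in EPS. The share of Slc16a3 among the 4 genes per kb went from 1.86%, 2.87% and 1.41% in controls to 31.4%, 28.0% and 33.4% in EPS (two-sided exact permutation p = 0.1; 0.114 adjusted over 8 shares). Slc16a1 still held the larger share, 61.2% ± 2.57, and the summed level of the 4 genes per kb fell from 28.4 ± 3.14 to 13.9 ± 1.36, without a test. The membrane partners of these carriers also moved in opposite directions: Bsg, basigin, fell from 624 ± 41.1 to 335 ± 9.21 CPM (edgeR adjusted p = 2.25e-04) and Emb, embigin, rose from 5.64 ± 0.27 to 61.1 ± 11.6 CPM (edgeR adjusted p = 3.29e-06). With library totals Bsg was not called.

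Ranked by CPM per kb of exon, the 10 genes formed a wide ladder in controls. Aldoa led at 604 ± 26.3, followed by Ldha (403 ± 10.5), Pkm (221 ± 10.3), Pfkfb3 (119 ± 8.70), Pgk1 (59.4 ± 0.66), Pfkl (50.5 ± 1.53), Hk2 (34.2 ± 4.87), Hk1 (9.85 ± 0.66), Hk3 (0.95 ± 0.15) and Slc16a3 (0.58 ± 0.22). The ranges over libraries of neighbouring genes overlapped only for Hk3 and Slc16a3. In EPS the ladder was compressed. Aldoa (147 ± 24.9), Pkm (128 ± 17.9) and Ldha (123 ± 18.6) overlapped at the top, followed by Pgk1 (57.1 ± 7.99) and Pfkfb3 (32.2 ± 5.70). Hk1 (15.1 ± 2.10), Hk3 (14.8 ± 5.26), Pfkl (12.7 ± 2.75) and Hk2 (9.26 ± 1.68) then overlapped each with the next, and Slc16a3 (4.31 ± 0.68) remained last. Hk3 overlapped Hk1 in EPS on this scale only: per kb of the longest transcript, a length choice added after seeing the data, Hk1 stood at 30.2 ± 4.19 and Hk3 at 16.9 ± 6.02 with no overlap, and by CPM Hk1 was higher as well. In controls Hk3 was far below Hk1 on each of these scales. With the longest transcript Pfkl also ranked above Pgk1 in controls (90.3 ± 2.73 against 73.1 ± 0.81).

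The remaining enzymes of glycolysis, taken from a list of 23 genes, moved in both directions, more of them down. Of 18 tested, 9 were lower and 4 higher, with a median log2 fold change of -0.58; 21 were in the table. Gpi1, which isomerises glucose 6-phosphate, fell by 0.53 ± 0.12, the triose phosphate isomerase gene Tpi1 by 0.73 ± 0.11, the mutase gene Pgam1 by 0.81 ± 0.10 and Gapdh by 0.98 ± 0.18 on the log2 scale. Eno1, the main enolase, fell from 1281 ± 50.2 to 491 ± 131 CPM (-1.38 ± 0.19; edgeR adjusted p = 4.57e-04), while Eno3, the muscle form, rose from 10.7 ± 1.32 to 25.7 ± 10.2 CPM (1.27 ± 0.28). Adpgk, an ADP-dependent sugar kinase, rose by 0.73 ± 0.22 (edgeR adjusted p = 0.0232), a call that was lost on leaving out any 1 control or on averaging controls 1 and 2. With library totals 4 of the 18 were lower, Gpi1, Tpi1, Pgam1, Pfkp and Tigar being no longer called.

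**Figure D3:**
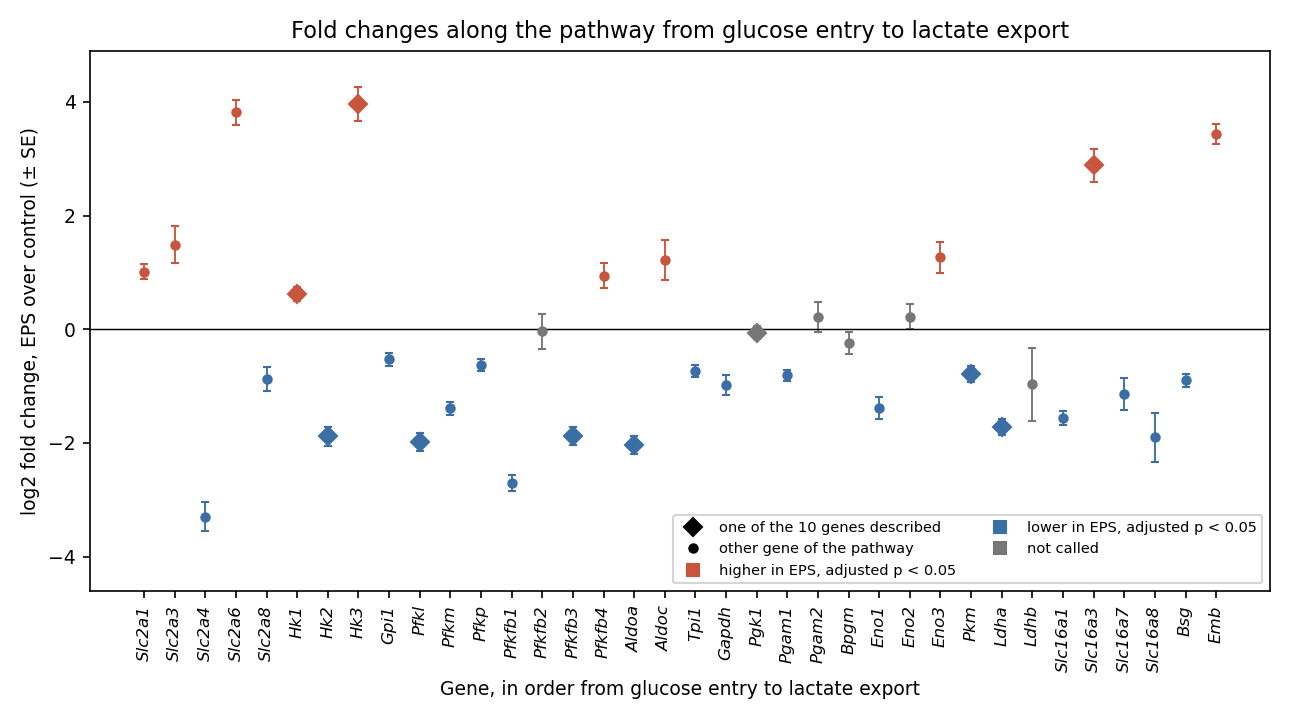
Log2 fold changes of EPS over control with SE are plotted for 36 genes in order from glucose entry to lactate export, diamonds for the 10 genes described and circles for others of the pathway, coloured by the edgeR call. Most enzymes between Gpi1 and Ldha lie below 0, and the points above 2 are Slc2a6, Hk3, Slc16a3 and Emb.

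Glucose entry showed a split like that of the hexokinases and exporters. All 10 genes of the glucose and lactate transport list were called, 4 higher and 6 lower. Slc2a4, the insulin-regulated carrier GLUT4 of fat and muscle, fell from 414 ± 46.3 to 42.1 ± 13.4 CPM (-3.29 ± 0.26; edgeR adjusted p = 2.91e-05). The constitutive carrier gene Slc2a1 rose from 18.1 ± 0.74 to 36.5 ± 4.65 CPM, Slc2a3, a high-affinity carrier of neurons and white blood cells, from 12.3 ± 4.09 to 34.4 ± 12.7 CPM, and Slc2a6 from 1.29 ± 0.27 to 18.2 ± 2.09 CPM. Slc2a8 fell by 0.87 ± 0.21 on the log2 scale and was not called with library totals.

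Genes of the route that takes pyruvate into the mitochondria were mostly lower as well. Of 14 genes tested, 12 were lower and 1 higher (median -1.95). Mpc1 and Mpc2, the subunits of the mitochondrial pyruvate carrier, fell (log2 fold changes -2.52 ± 0.17 and -2.66 ± 0.14), as did Pdha1 and Pdhb, of pyruvate dehydrogenase (-2.38 ± 0.15 and -2.76 ± 0.17). Pcx, pyruvate carboxylase, which supplies oxaloacetate for fat synthesis, fell from 4708 ± 166 to 431 ± 130.4 CPM. The kinases that switch pyruvate dehydrogenase off were divided: Pdk4 fell from 154 ± 27.4 to 12.8 ± 1.64 CPM, Pdk1 and Pdk2 fell by 1.21 ± 0.10 and 1.88 ± 0.16, and Pdk3 rose from 8.56 ± 0.71 to 25.9 ± 3.46 CPM (edgeR adjusted p = 6.91e-05).

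Among 10 regulators of glycolytic genes, 2 were higher and 5 lower (median -0.70). Hif1a, the oxygen-sensitive factor that activates glycolytic genes, rose from 42.3 ± 1.83 to 73.3 ± 8.46 CPM (0.79 ± 0.11; edgeR adjusted p = 4.38e-04), and Myc rose from 15.7 ± 2.81 to 65.4 ± 5.44 CPM (2.06 ± 0.15; edgeR adjusted p = 1.45e-05). Epas1, which encodes the related factor HIF-2alpha and is abundant in endothelium and fat, fell from 951 ± 37.3 to 228 ± 14.4 CPM. Egln3 and Egln1, prolyl hydroxylases that mark these factors for breakdown, fell by 1.79 ± 0.20 and 1.25 ± 0.09 on the log2 scale. Txnip, an inhibitor of glucose uptake whose transcript follows glucose supply, fell from 1087 ± 84.2 to 255 ± 36.2 CPM. Arnt, the partner of both factors, was not called (0.01 ± 0.09; edgeR adjusted p = 0.908).

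**Figure D4:**
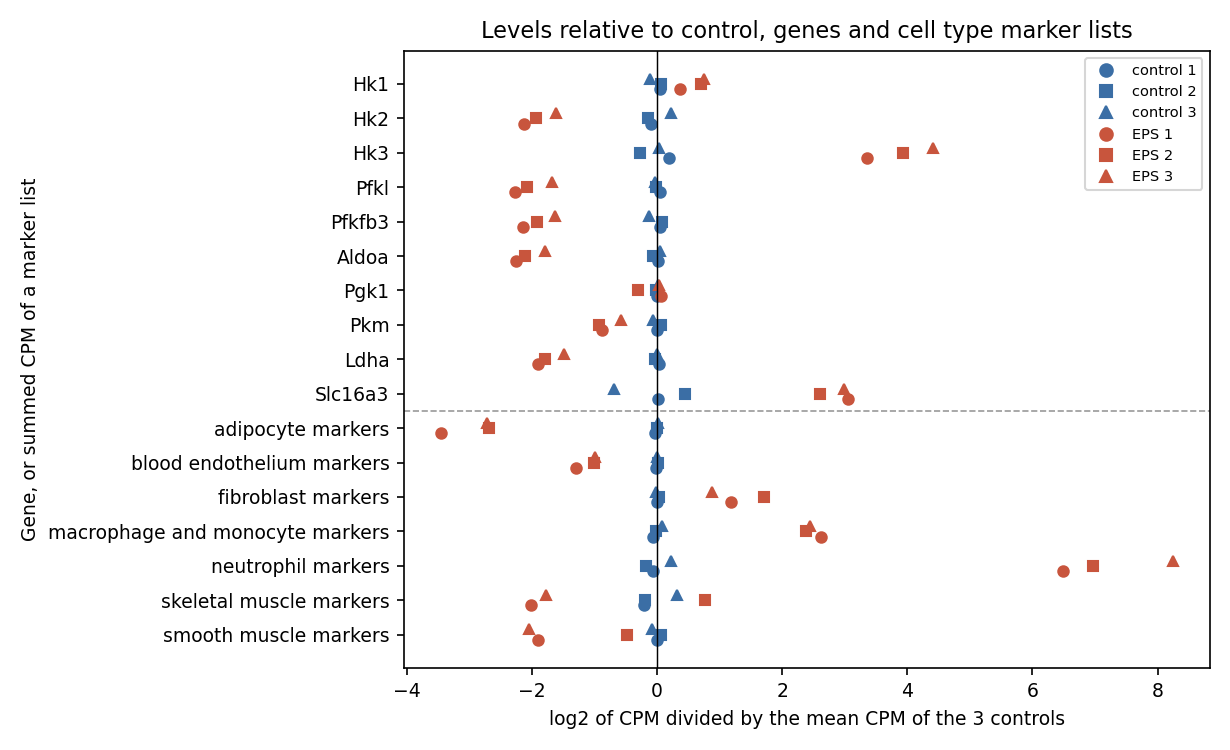
Each point is one library's CPM of a gene, or summed CPM of a marker list, as log2 of its ratio to the mean of the 3 controls. Hk3 and Slc16a3 lie to the right, as do the fibroblast, macrophage and neutrophil lists. The fibroblast list does so mostly through Col1a1 and Col1a2. Hk2, Pfkl, Pfkfb3, Aldoa and Ldha lie to the left, as do the adipocyte, blood endothelium and smooth muscle lists. The T cell, B cell and cell cycle lists, which also rose, are not drawn.

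Genes whose profiles lay nearest to 3 of the 10 were sought among 11251 genes with a mean of at least 5 CPM, by the root mean square difference of centred log2 CPM over the 6 libraries. Ldha was nearest to Pank3 (0.017), a pantothenate kinase of coenzyme A synthesis, then Ywhag (0.032) and Taldo1 (0.050), transaldolase of the pentose phosphate pathway. Nearest to Hk3 were Septin1 (0.142), Mreg (0.156) and the lymphocyte receptor gene Cd27 (0.160). Slc16a3 was nearest to Bst1 (0.190), the replication gene Mcm10 (0.201) and the DNA sensor gene Aim2 (0.225). The differences are in log2 units and describe these libraries without a test.

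The results for the 10 genes were also taken without EPS 1, the library rich in pancreatic transcripts, and with controls 1 and 2, which resemble each other, averaged as 1 sample. Without EPS 1 the counts were again 6 lower and 3 higher; Aldoa stood at -1.87 and Ldha at -1.56 on the log2 scale, Hk3 at 4.27 and Slc16a3 at 2.88. With both changes made together they stood at -1.87, -1.54, 4.27 and 3.03.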

How the data were processed

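RNA was extracted with Trizol, selected by poly-T beads and copied with random primers, per the labels' protocols; no strand-marking step is named. The deposited table holds raw read counts per gene symbol made by the authors, with no normalization. Per the submitters' processing notes the build was mm10; the aligner, the counter and their annotation: not given in the sources used here. Genes were filtered by edgeR's filterByExpr, scaled by TMM and tested with the robust quasi-likelihood F-test (edgeR 4.0.16, R 4.3.3), without covariates, and p-values were adjusted by Benjamini-Hochberg over 13980 genes; calls are at an adjusted p under 0.05. CPM use TMM-scaled library sizes, ± on CPM or shares is the SD over 3 libraries, and ± on a log2 fold change its SE. Per-kb levels use the union of a gene's exons in GENCODE vM21 of GRCm38, the assembly of mm10, which holds 14673 of the 14943 symbols and gave the coordinates, gene bodies counted from 1. Copies were sought with blastn 2.17.0, and promoters come from RefSeq (GRCm38.p6), found for all 10 genes. 1 gene of the glycolysis list is not reported here and was left out of the list and of its family's sum. Family shares were compared by an exact permutation test over 20 splits, adjusted over 8 shares. The scripts were first tested on simulated data. The 10 genes, the gene lists and the marker lists were chosen with earlier results of these data known; any gene of the lists could be named. Alternatives were RLE, upper-quartile and no scaling factors, no filter or at least 50 counts in 3 libraries, DESeq2 1.42.0, limma-voom 3.58.1, no robust option, a replicate block, each library left out, controls 1 and 2 averaged, that with EPS 1 left out (added after seeing the data), pancreas genes removed and other gene lengths.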

Additional observations from a re-analysis of the deposited data

How the results depend on the processing

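Over 18 alternatives each, 8 of the 10 genes kept their direction and their call, Pgk1 was never called, with values on both sides of 0, and Pkm lost its call only with library totals. With that scaling 2182 genes of the whole table were lower in place of 4245, and 4 in place of 9 of the other glycolysis enzymes; the cause was not tested beyond the shift of the median gene. Without control 3, 2 in place of 4 of those enzymes were higher. In the gluconeogenesis list 1 in place of 0 was higher under 7 alternatives and 1 in place of 2 lower with library totals. The difference of the Ldha share between EPS and control, -5.20 percentage points, lay between -9.68 and 1.98 on leaving out 1 library, the last without EPS 2, the library with high Ldhb. Shares of Hk1, Hk2, Hk3, Pfkl and Slc16a3 changed in size but not direction with other gene lengths. With a replicate block 3947 genes were higher and 4166 lower, and the calls of the 10 genes did not change; deviations of same-numbered libraries correlated at 0.20, -0.095 and 0.24, so the numbers are not taken as pairs. Slc16a3 and Hk3 rest on few control reads, between 29 and 64 a library.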

Other observations

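Routes that branch from glycolysis were followed with gene lists as well. In the pentose phosphate pathway, which draws on glucose 6-phosphate to make NADPH and ribose, 5 of 7 genes were lower and none higher, with a median log2 fold change of -1.72. Tkt, transketolase, fell from 3836 ± 307 to 419 ± 129 CPM (SD, n = 3), Pgd, which makes NADPH, from 1335 ± 82.1 to 285 ± 95.6 CPM, and G6pdx, the entry enzyme, from 469.8 ± 24.2 to 123 ± 27.1 CPM. Pgls and Rpia were not called (edgeR adjusted p = 0.171 and 0.669). Of 4 gluconeogenesis genes tested, 2 were lower and none higher, with a median of -0.72. Fbp2 was not called (edgeR adjusted p = 0.630), and without EPS 1 it was lower (-3.45 ± 0.72; edgeR adjusted p = 0.00328). It rests on few reads, 21 to 32 a library in controls and 46, 1 and 5 in EPS 1 to 3. Pck1, which feeds glycerol synthesis in fat, fell from 2176 ± 259 to 102 ± 63.1 CPM (-4.41 ± 0.63; edgeR adjusted p = 0.00126), and G6pc3, a widely expressed glucose phosphatase subunit, fell by 0.77 ± 0.12 on the log2 scale, a call lost with library totals.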
